A study of Mus musculus with 458 samples.

Results

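The 82 genes described here are the heat shock proteins, their J-domain partners and the subunits of the cytosolic chaperonin. They were chosen by name from the 22645 gene symbols of the expression table: every symbol starting with Hsp, every Dnaja, Dnajb or Dnajc gene, and the CCT genes with Tcp1. By symbol, 3 belong to Hsp90, 14 to Hsp70 (with the Hsp110 relatives), 43 to the J-domain genes, 8 to the small heat shock proteins and 9 to CCT. The other 5 are Hspd1, Hspe1, Hspbp1, Hspbap1 and Hspg2. The name rule also takes in proteins that are not chaperones. Hspg2 encodes perlecan, an extracellular matrix protein, and Hspb11 a protein of intraflagellar transport.

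The genes were read in single haematopoietic stem cells (HSCs) of mouse bone marrow. A single Vwf+ HSC had been transplanted into each mouse, and blood output was followed for 16 weeks. Multilineage (MUL) recipients had a balanced output, PEM recipients were labelled as restricted to platelet, erythroid and myeloid output, and PLT recipients as platelet-restricted. All cells were C57BL/6, donor-derived (CD45.2+) and sorted as LSK CD150+CD48-, with 2 mice and 163 cells in MUL, 2 mice and 118 cells in PEM, and 2 mice and 177 cells in PLT. The labels name no genotype, drug, age or untransplanted control for these mice. Since each recipient carried the progeny of 1 transplanted cell, each mouse is also 1 clone, and a difference between mice cannot be told apart from a difference between clones. Both MUL mice share the leading number of their titles and the other 4 mice each have their own. The labels do not say what that number is, and it cannot be told apart from the contrast of MUL with the other groups.

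Chaperones bind unfolded proteins and, with cycles of ATP binding, let them fold or pass them on. Hsp70 proteins take up short unfolded segments, J-domain proteins bring them clients and stimulate their ATPase, and nucleotide exchange factors reset them. Hsp90 acts later, on signalling proteins and receptors, and the CCT ring folds actin, tubulin and other proteins in its chamber. When unfolded protein builds up, heat shock factor 1 (Hsf1) binds heat shock elements, inverted repeats of GAA, and raises a subset of these genes, with Hspa1a, Hspa1b, Hsph1, Dnajb1 and Hspb1 among the best known. Many others are expressed in unstressed cells. In HSCs the control of protein folding is known to matter for self-renewal, and cell isolation is known to induce heat-inducible genes.

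The promoter sequences below show the inverted repeat in 6 members that the results return to. RefSeq promoters (GRCm38.p6) were given for 68 of the 82 genes and were searched over 250 bases before the start site. The motifs were GAANNTTC and TTCNNGAA, each of which is its own reverse complement and so covers both strands. Matches are in capitals, and each sequence runs 5′ to 3′ along the strand of its gene. The stretches of Hspa1a (chr17:34972208-34972305, minus strand) and Hspa1b (chr17:34959290-34959387, minus strand) are identical here. Those of Hspb1 (chr5:135887757-135887874, plus strand), Hsph1 (chr5:149636351-149636380, minus strand), Dnaja1 (chr4:40722333-40722362, plus strand) and Hspe1 (chr1:55088053-55088082, plus strand) follow. The last 3, of Hsph1, Dnaja1 and Hspe1, overlap an annotated exon and are shown over 30 bases only.
Hspa1a: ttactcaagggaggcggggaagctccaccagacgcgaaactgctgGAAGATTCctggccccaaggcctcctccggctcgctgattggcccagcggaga
Hspa1b: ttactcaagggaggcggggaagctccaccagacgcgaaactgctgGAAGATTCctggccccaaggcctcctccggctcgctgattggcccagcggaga
Hspb1: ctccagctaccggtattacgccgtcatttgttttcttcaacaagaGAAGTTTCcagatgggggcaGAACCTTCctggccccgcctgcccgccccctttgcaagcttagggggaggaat
Hsph1: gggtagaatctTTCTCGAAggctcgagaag
Dnaja1: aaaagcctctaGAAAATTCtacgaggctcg
Hspe1: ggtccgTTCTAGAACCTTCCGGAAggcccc

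At least 1 match was found for 16 of the 68 genes (23.5%), against 14.5% of the 27025 genes in the promoter table. Longer runs of 3 alternating GAA and TTC units, each parted by any 2 bases, which contain the shorter motifs, were found for Hspd1, Hspe1 and Dnajb6 (4.41% of the 68), against 0.514% of all genes. Hspd1 and Hspe1, which encode the mitochondrial chaperonin and its lid, lie head to head on chromosome 1 and share the run printed for Hspe1. The 250 upstream bases of Hspa1a and Hspa1b differed at 3 positions and were 98.8% the same. Dnajb1, whose promoter was searched too, had no match in its window. A match is a description of the letters and not a measured site. Promoters of Hspa8, Hsp90aa1 and Hsp90ab1 were among the 14 not analysed here.

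Levels are in RPKM, a read density that allows for gene length and for the depth of the cell, averaged over the cells of a mouse. A cell was counted as positive for a gene at 1 RPKM or more. Median depth was 4.28 to 5.32 M mapped reads per cell across the mice, and the median number of detected genes was lowest in PLT mouse 1 (1869) and highest in PEM mouse 1 (3186). PEM mouse 2 had 25 cells, in 2 sets (marked P1 and P2 in the titles) with medians of 3.2 and 12.2 M reads, and the other mice had 78 to 93 cells. For many members the positive share in PEM mouse 2 was lower in the P2 cells, as for Cct8 (92.9% in P1 and 36.4% in P2). Cct2 was an exception (42.9% and 45.5%). The HSC markers Kit, Ly6a, Slamf1, Procr, Mecom, Hlf and Meis1 were above 0 in every mouse. The summed level of 8 neutrophil markers ranged from 33.5 RPKM in PEM mouse 1 to 14927 in PEM mouse 2, and that of 8 erythroid markers from 18.9 to 484. Of the T and NK cell markers, Cd3e, Cd3g and Ncr1 were at 0 in every cell. Cd3d averaged 0.104 to 0.492 RPKM across the mice, Nkg7 19.7 to 221 RPKM and Klrb1c 0 to 110 RPKM. The summed level of 5 B cell markers was 301 RPKM in PEM mouse 2 and 26.3 to 51.5 RPKM in the other mice. Pairs of values below are mouse 1, then mouse 2, of a group.

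The set ran from genes read in nearly every cell to genes at 0. A mean of 50 RPKM or more over the 6 mice was reached by 28 members: all 3 Hsp90 genes, 5 Hsp70, 10 J-domain and 8 CCT genes, with Hspd1 and Hspe1. A further 7 stayed below 1 RPKM in every mouse, and 4 of these (Dnajc22, Dnajb8, Hspb3 and Hspg2) were at 0 in every cell. A cell held a median of 14 positive members in PLT mouse 1 and 27 in PEM mouse 1. This number followed detected genes within each mouse (Spearman 0.78 to 0.93 over 25 to 93 cells). With mapped reads its correlation was negative in each mouse (Spearman -0.75 to -0.30). The cells of a mouse are not independent and vary in depth. A 0 can be a missed transcript, since Gapdh was also at 0 in 45 of the 458 cells.

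**Figure D1:**
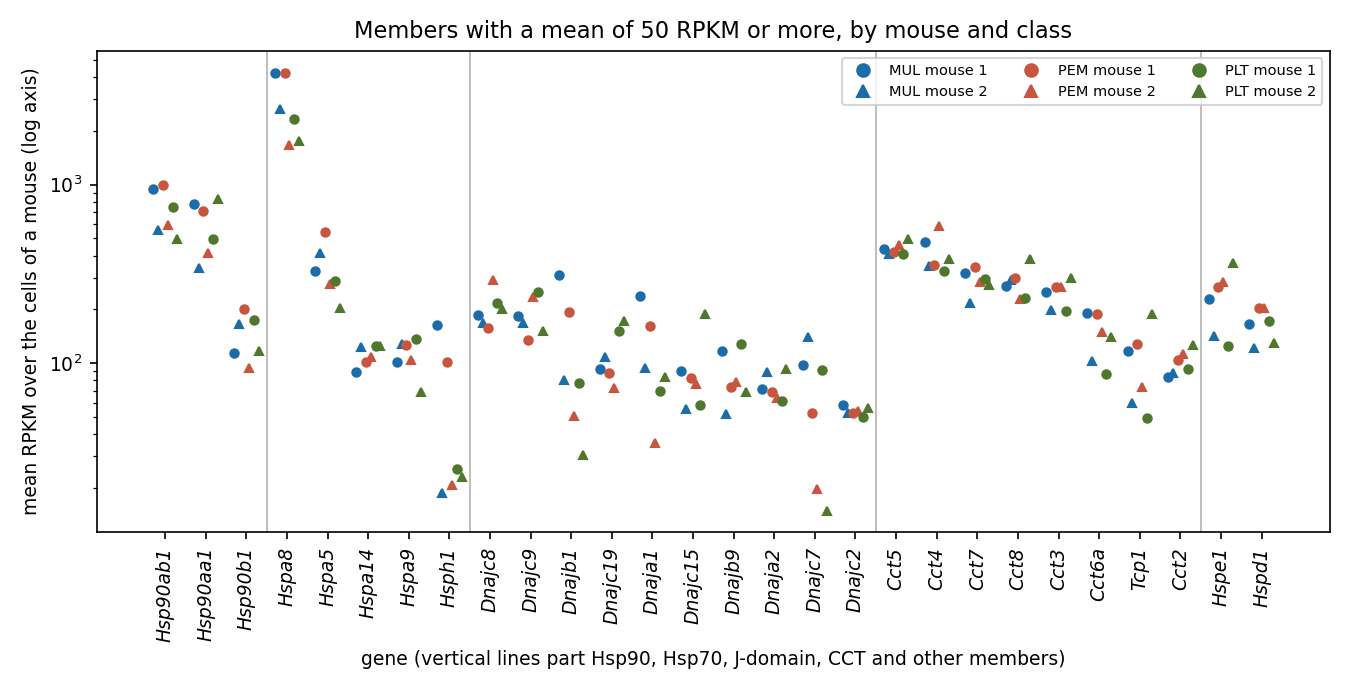
Mean RPKM per mouse on a log axis for the 28 members with a mean of 50 RPKM or more, ordered within class. Colours mark the groups and symbols the mouse. Hspa8 is the highest member in every mouse, the Cct5 values lie close together, and the Dnajb1, Dnaja1 and Hsph1 values of MUL mouse 1 and PEM mouse 1 stand above those of the other 4 mice.

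Hspa8, the constitutive cytosolic Hsp70 (also called Hsc70), was the highest member in every mouse. It averaged 4217 and 2666 RPKM in MUL, 4234 and 1676 in PEM, and 2317 and 1754 in PLT. The groups overlapped between MUL and PEM, while both PLT mice lay below both MUL mice. It was positive in 96% of cells of PEM mouse 2 and in every cell of the other mice, and it made up 22.0 to 37.2% of the summed RPKM of all 82 members. Hspa5, the Hsp70 of the endoplasmic reticulum (BiP), averaged 329 and 412 RPKM in MUL, 542 and 276 in PEM, and 287 and 204 in PLT. Hspa9, the mitochondrial Hsp70, averaged 101 and 129, 126 and 105, and 136 and 68.9 RPKM in the same order. The 3 compartments differed in level, with the cytosolic gene several times above the others in each mouse. Hspa14, a ribosome-associated relative, lay between 88.6 and 125 RPKM, and Hspa4, an exchange factor of the Hsp110 type, between 18.4 and 36.2 RPKM.

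The Hsp90 genes were also read in most cells. Hsp90ab1, the constitutive cytosolic form, averaged 949 and 559 RPKM in MUL, 996 and 590.3 in PEM, and 745 and 496 in PLT. Hsp90aa1, the more inducible form, averaged 777 and 343 RPKM in MUL, 712 and 414 in PEM, and 497 and 833 in PLT. The mice of a group lay far apart for both genes, and PLT mouse 2 was the lowest mouse for Hsp90ab1 and the highest for Hsp90aa1. Hsp90b1, the form of the endoplasmic reticulum, lay lower, at 114 and 165, 201 and 93.6, and 175 and 116 RPKM. Its share of positive cells ran from 36% in PEM mouse 2 to 80.6% in PEM mouse 1. In PEM mouse 2 the share was 57.1% of the 14 P1 cells and 9.09% of the 11 P2 cells.

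The CCT subunits were read at substantial levels in every mouse. Cct5, the most abundant on this scale and steady between mice, averaged 437 and 408 RPKM in MUL, 418 and 461 in PEM, and 408 and 497 in PLT, and was positive in 69.9 to 90.3% of cells. Cct4, Cct7, Cct8 and Cct3 followed, each between 195 and 586 RPKM in every mouse, and Cct6a, Tcp1 and Cct2 lay between 49.5 and 192 RPKM. These 8 genes encode the different subunits of a single ring, and 8 of the 9 genes of the class were thus at 49.5 RPKM or more throughout. The ninth, Cct6b, a testis form of the zeta subunit, was at 4.11 RPKM in MUL mouse 1 and at 0 in the other 5 mice. Tcp1, the alpha subunit, had the widest spread of the 8 as a ratio of highest to lowest mouse, with 49.5 RPKM in PLT mouse 1 and 188 in PLT mouse 2. The summed CCT level was lowest in PLT mouse 1 (1687 RPKM) and highest in PLT mouse 2 (2290.1 RPKM), so the PLT mice spanned the whole range.

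Among the other members, Hspe1, the lid of the mitochondrial chaperonin, averaged 228 and 142 RPKM in MUL, 266 and 286 in PEM, and 125 and 364 in PLT. Its positive share ran from 33.3% in PLT mouse 1 (31 of 93 cells, exact 95% interval 23.9 to 43.9%) to 89.3% in PLT mouse 2 (75 of 84, interval from 80.6%). Hspd1, the chaperonin itself, averaged 165 and 121, 204 and 203, and 173 and 129 RPKM. The 2 genes overlap in an exon on opposite strands, and the use of strand in counting was not given in the sources used here.

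J-domain genes were the largest class, with 43 of the 82 members, and were spread over the whole range of levels. The most abundant were Dnajc8, a partner of the spliceosome (157 to 292 RPKM), and Dnajc9, a histone co-chaperone (135 to 252 RPKM). Dnajc19, of the mitochondrial import motor, and its relative Dnajc15 lay at 72.2 to 172 and 55.6 to 189 RPKM. Dnajc2, a ribosome-associated member, had the steadiest mouse means of the class above 50 RPKM, at 50.2 to 58.2 RPKM in all mice. The close means hide a spread within mice. The P1 and P2 cells averaged 39.5 and 81.0 RPKM in MUL mouse 1 and 74.8 and 27.9 RPKM in MUL mouse 2. Dnajb9, of the endoplasmic reticulum, lay at 51.7 to 128 RPKM, and Dnaja2, a cytosolic partner of Hsp70, at 61.0 to 92.8 RPKM. Small heat shock proteins were the lowest class. None had a mean of 50 RPKM over the 6 mice, and the highest was Hspb11, which is no chaperone, at 10.4 to 78.3 RPKM.

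The heat-inducible members varied widely, and they did so between mice of the same group. Hspa1a, the inducible Hsp70, averaged 48.9 RPKM in MUL mouse 1 and 11.9 RPKM in PEM mouse 1, and was at 0.015 RPKM or less in the other 4 mice. It was positive in 22 of 78 cells of MUL mouse 1 (28.2%, exact 95% interval 18.6 to 39.5%) and in 13 of 93 cells of PEM mouse 1 (14.0%, 7.66 to 22.7%). No cell was positive among 85 in MUL mouse 2, 25 in PEM mouse 2, 93 in PLT mouse 1 and 84 in PLT mouse 2, which allows shares of up to 3.53%, 12%, 3.23% and 3.57%. These intervals and limits cover counting error only. Hspa1b, the neighbouring copy, was positive in 32.1% of cells of MUL mouse 1 and 17.2% of cells of PEM mouse 1, and in none of the cells of the other mice. The 2 genes have a single exon each, at chr17:34969190-34972156 and chr17:34956436-34959238 on the minus strand (mm10), and share 50-base stretches over 58.8 to 62.3% of their length. Their reads may therefore be split between them in ways the deposited values do not show.

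Hsph1, an Hsp110 exchange factor also called Hsp105, averaged 163 RPKM in MUL mouse 1 and 102 in PEM mouse 1, against 18.7 in MUL mouse 2, 20.8 in PEM mouse 2, and 25.6 and 23.0 in the PLT mice. Its positive share was 59.0% and 57.0% in MUL mouse 1 and PEM mouse 1 and 9.68 to 21.4% in the other mice. Dnajb1, the inducible J-domain partner of Hsp70, averaged 312 and 80.6 RPKM in MUL, 194 and 50.7 in PEM, and 77.8 and 30.8 in PLT, with positive shares of 67.9 and 45.9%, 82.8 and 40%, and 21.5 and 29.8%. The same mice were high again, and both PLT mice lay below both MUL mice. Dnaja1, another cytosolic partner of Hsp70, averaged 239 and 93.5 RPKM in MUL, 162 and 35.8 in PEM, and 69.9 and 83.5 in PLT. Hspb1, the small heat shock protein Hsp25, was positive in 9 of 78 cells of MUL mouse 1 and in 3, 1, 1, 0 and 0 cells of PEM mouse 1, MUL mouse 2, PLT mouse 2, PEM mouse 2 and PLT mouse 1. Its mean of 38.9 RPKM in MUL mouse 1 rested largely on 1 cell, which held 70.4% of the sum.

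**Figure D2:**
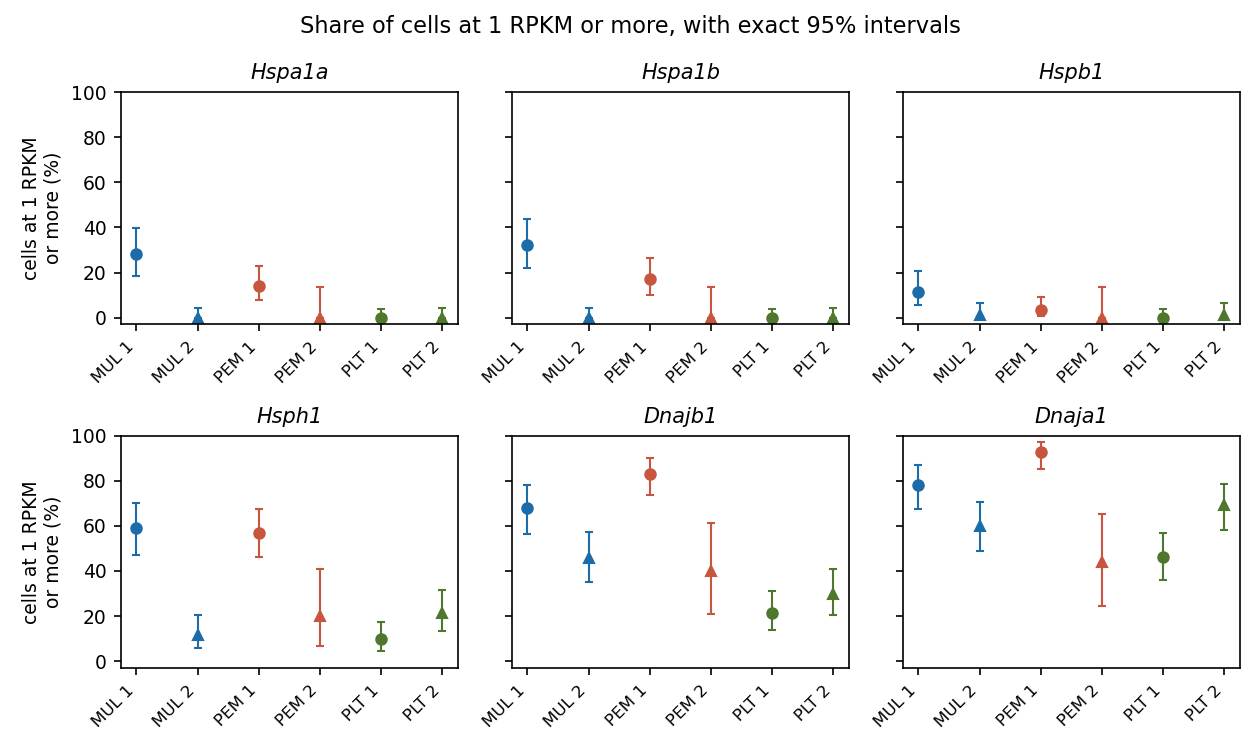
Share of cells at 1 RPKM or more (vertical axes, percent) for 6 heat-inducible members in each mouse, with exact 95% intervals for counting error. For Hsph1 the intervals of MUL mouse 1 and PEM mouse 1 (47.3 to 70.0% and 46.3 to 67.2%) lie above those of the other 4 mice, and for Hspa1a and Hspa1b 4 mice are at 0.

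The titles mark the cells of each mouse as P1 or P2, without saying what this stands for. Hsph1 averaged 191 and 129 RPKM in the P1 and P2 cells of MUL mouse 1 and 104 and 99.9 RPKM in those of PEM mouse 1, against 11.7 to 35.8 RPKM in the 8 such sets of the other mice. Hspa1a was positive in 30.2 and 25.7% of the P1 and P2 cells of MUL mouse 1 and in 15.2 and 12.8% of those of PEM mouse 1. Hspb1 differed between the sets of MUL mouse 1, at 61.9 and 10.8 RPKM. A restriction to cells with 1800 to 3000 detected genes, chosen for this purpose after the values were seen, left 11 to 62 cells per mouse. In these cells Dnajb1 averaged 338 and 86.8 RPKM in MUL, 188 and 29.9 in PEM, and 93.8 and 25.0 in PLT. Hsph1 averaged 158 and 15.6, 63.1 and 29.5, and 30.9 and 22.3 RPKM there. The means of MUL mouse 1 and PEM mouse 1 were the 2 highest for both genes in these cells. The positive share of Hsph1 was 64.2% in MUL mouse 1 and 33.3% in PEM mouse 1 (12 of 36 cells), against 27.3% in PEM mouse 2 (3 of 11 cells) and 6.45 to 16.1% in the other mice. Hspb1 did not keep this order, at 0.00603 RPKM in PEM mouse 1 and 5.61 RPKM in PLT mouse 2.

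**Figure D3:**
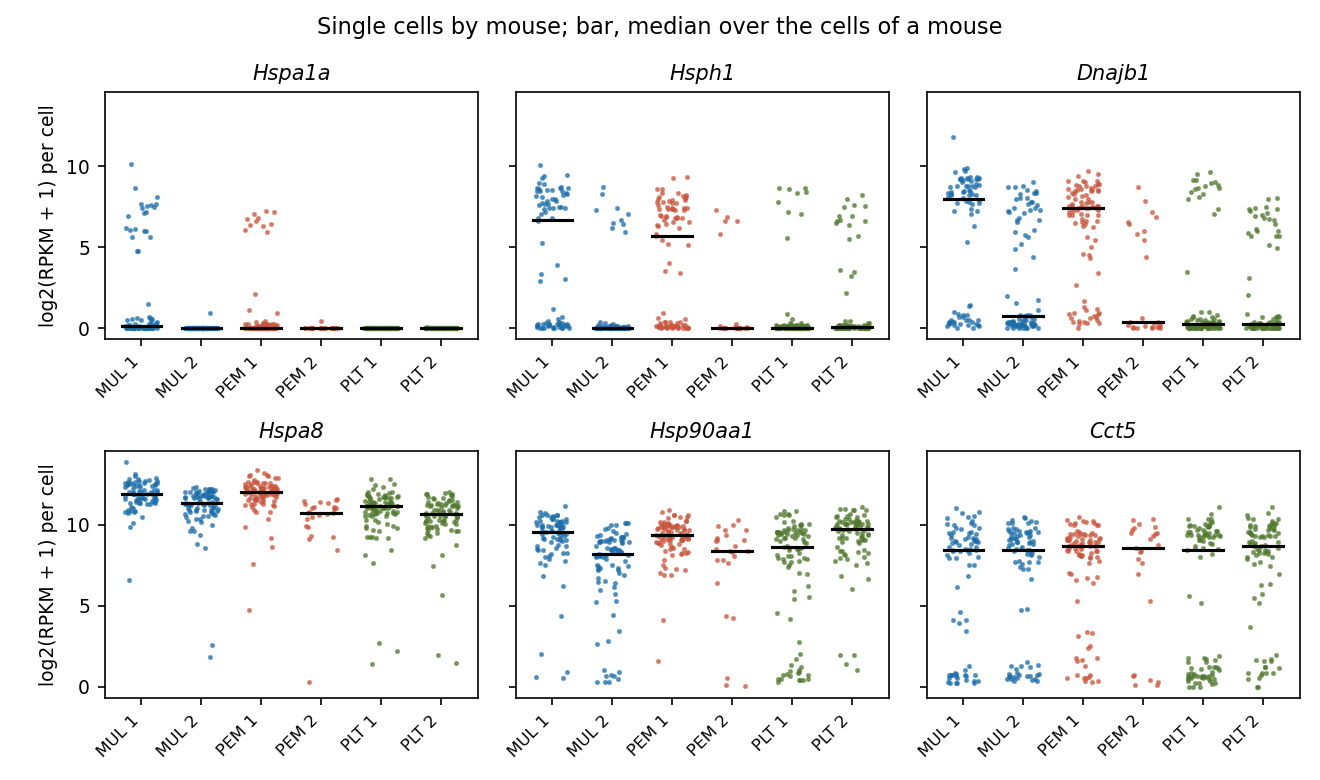
Each point is 1 cell, as log2(RPKM + 1), by mouse, for 3 heat-inducible members (upper row) and for Hspa8, Hsp90aa1 and Cct5 (lower row), and bars are medians over cells. Hsph1 and Dnajb1 divide into cells near 0 and cells above 5 on this scale, and the share of the upper cells differs between mice, whereas Hspa8 is high in almost every cell.

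Within a mouse the inducible members overlapped in cells to different degrees. In MUL mouse 1, 21 of the 22 cells positive for Hspa1a were also positive for Hspa1b, and all 16 cells positive for Hspa1l, the neighbouring gene on the opposite strand, were positive for Hspa1a. Of the same 22 cells, 20 were positive for Hsph1 and 18 for Dnajb1, which were positive in 46 and 53 of all 78 cells. Spearman correlations over these 78 cells were 0.75 for Hspa1a with Hspa1b, 0.30 with Hsph1 and 0.26 with Dnajb1. Hspa8 with Hsp90ab1 gave 0.41, and Hspd1 with Hspe1 gave 0.39. In PEM mouse 1, all 13 cells positive for Hspa1a were positive for Hspa1b, and the correlation was 0.64 over 93 cells. Of these 13 cells, 9 were positive for Hsph1 and 11 for Dnajb1, which were positive in 53 and 77 of the 93 cells, and the correlations were 0.09 and -0.13. The cells of a mouse are not independent and vary in depth, and Hspa1a shares sequence with Hspa1b and with Hspa1l (9.57% of the 50-base stretches of Hspa1l).

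**Figure D4:**
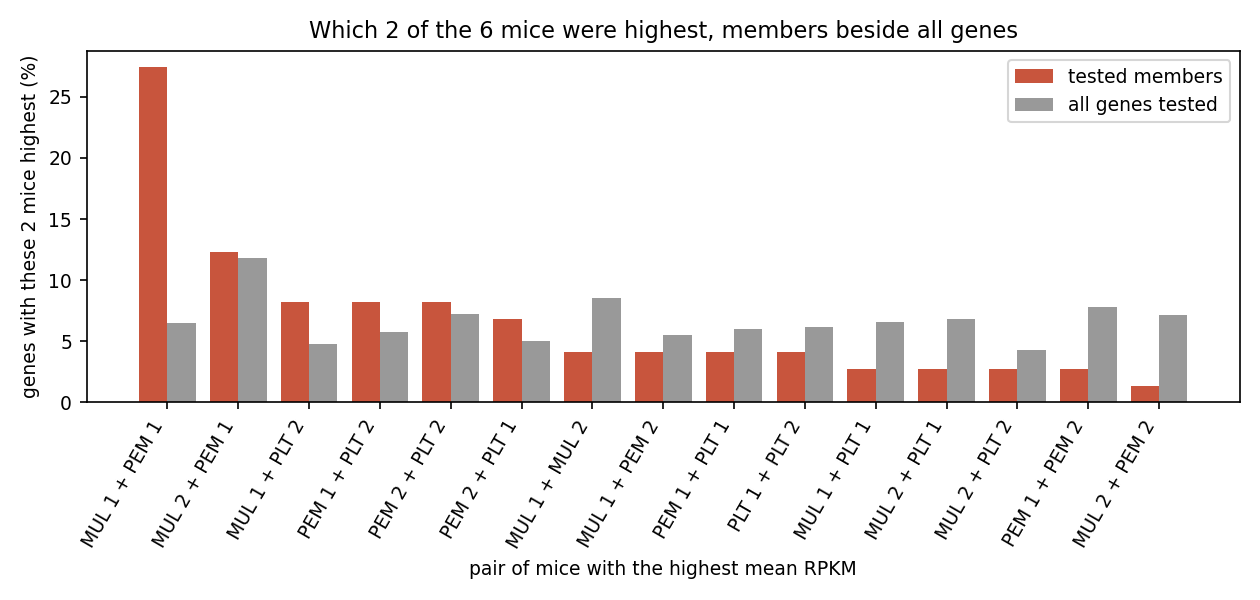
For each of the 15 possible pairs of mice, bars give the percentage of genes whose 2 highest mean RPKM values fell in that pair, for the 73 tested members and for all 11337 tested genes. The pair of MUL mouse 1 and PEM mouse 1 holds 27.4% of the members and 6.53% of all genes. These members include Hspa1a and Hspa1b, which passed the filter only through these 2 mice.

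The same order was counted over the set, after it had been seen in the inducible genes and so as a description without a test. The filter on low values was passed by 73 members and by 11337 genes in all. By mean RPKM, MUL mouse 1 and PEM mouse 1 were the 2 highest mice for 20 of the 73 members (27.4%). That was so for 6.53% of all 11337 genes. The count includes the inducible genes in which the order was first seen. Hspa1a and Hspa1b passed the filter only through these 2 mice, which fixed their place in the pair. The 20 comprised 6 Hsp70 genes (Hspa1a, Hspa1b, Hspa1l, Hspa4l, Hspa8 and Hsph1), Hsp90ab1, Hspb1, the CCT genes Cct6a and Cct7, and 10 J-domain genes including Dnaja1, Dnaja4, Dnajb1 and the mitochondrial Dnaja3. By share of positive cells MUL mouse 1 and PEM mouse 1 led for 13 of 71 members (18.3%), against 6.03% of all genes. The most frequent pair by share was another, PEM mouse 1 and PLT mouse 2. It led for 24 of the 71 members (33.8%, against 20.9% of all genes), among them Hspd1, Hspe1, Hsp90ab1 and Cct5. Promoters were at hand for 16 of the 20 genes, and 6 of them held GAANNTTC or TTCNNGAA: Hspa1a, Hspa1b, Hspb1, Hsph1, Dnaja1 and Dnaja4. Among all genes with a promoter 14.5% held a motif, and among the 68 members with a promoter 23.5% did. Of the 6 members with the highest means in PEM mouse 2 and PLT mouse 2, 4 did (Hspe1, Cct2, Dnajc27 and Cct5). Hspa1a and Hspa1b have near-identical promoters, and the filter fixed their place in the pair of MUL mouse 1 and PEM mouse 1. The Hspb1 mean in PEM mouse 1 rested largely on 1 cell, which held 53.9% of the sum. By mean RPKM the next most frequent pair, MUL mouse 2 and PEM mouse 1, held 9 members (12.3%, against 11.8% of all genes), among them Hspa5.

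Summed over the class, Hsp70 genes reached 5069.8 and 3403 RPKM in MUL, 5205 and 2238 in PEM, and 2944 and 2219 in PLT, and Hsp90 genes 1841 and 1067, 1908 and 1098, and 1417 and 1445 RPKM. J-domain genes summed to 1919 and 1389.9, 1535 and 1370.1, and 1533 and 1409.9 RPKM. The 16 immediate early genes listed, which cell isolation is also known to induce, summed to 409 and 660 RPKM in MUL, 182 and 297 in PEM, and 174 and 77.1 in PLT, with Klf2 at 0 in every cell. The sum was highest in MUL mouse 2, where Dusp1 alone gave 374 RPKM. Single genes had other orders: Fos was highest in MUL mouse 1 (41.1 RPKM) and at 9.04 RPKM or less elsewhere, and Ier3 was highest in MUL mouse 1 and PEM mouse 1 (26.9 and 22.0 RPKM). MUL mouse 1 and PEM mouse 1 were recorded as male, as were MUL mouse 2 and PLT mouse 1, and PEM mouse 2 and PLT mouse 2 as female. The neutrophil markers summed to 92.6 RPKM in MUL mouse 1, with Elane at 0 in every cell. The 6 T and NK cell markers summed to 222 RPKM in MUL mouse 1, 126 in PEM mouse 1 and 66.0 to 130 in the other mice, with Cd3e, Cd3g and Ncr1 at 0 in every cell. Cd48, which the sort excluded, averaged 3.49 RPKM in MUL mouse 1, 2.91 in PEM mouse 1 and 2.26 in MUL mouse 2, and 0 elsewhere. The 5 megakaryocyte and platelet markers summed to 222 RPKM in MUL mouse 1 and 514 in PEM mouse 1, but to 1461 in PEM mouse 2. Macrophage and monocyte markers were highest in PLT mouse 1 (109 RPKM). The part of isolation, sex and admixed cells in the order of the mice was not tested.

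The 3 pairwise comparisons ask whether HSCs of different fates differ in these genes. The mouse was the unit, so p-values set a difference between groups against the spread between mice, on log2(mean RPKM + 1), which understates the change of low genes. No member passed limma's test at an adjusted p of 0.05 in any comparison. In PLT minus MUL, 0 of the 73 tested members were called higher and 0 lower, against 0% and 0.00882% of all tested genes. In PEM minus MUL and in PLT minus PEM, 0 were called in either direction, against 0% of all genes. At an unadjusted p under 0.05, limma gave 1 member higher and 4 lower in PLT minus MUL, against 2.44% and 5.96% of all genes, and 0 higher and 1 lower in PEM minus MUL, against 2.8% and 2.79%. In PLT minus PEM it gave 3 higher and 3 lower, against 2.49% and 5.88%. The median log2 difference of the members was -0.17, -0.03 and -0.13 in the 3 comparisons, beside -0.18, -0.04 and -0.13 for all tested genes, so the set as a whole lay at the level of all genes.

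**Figure D5:**
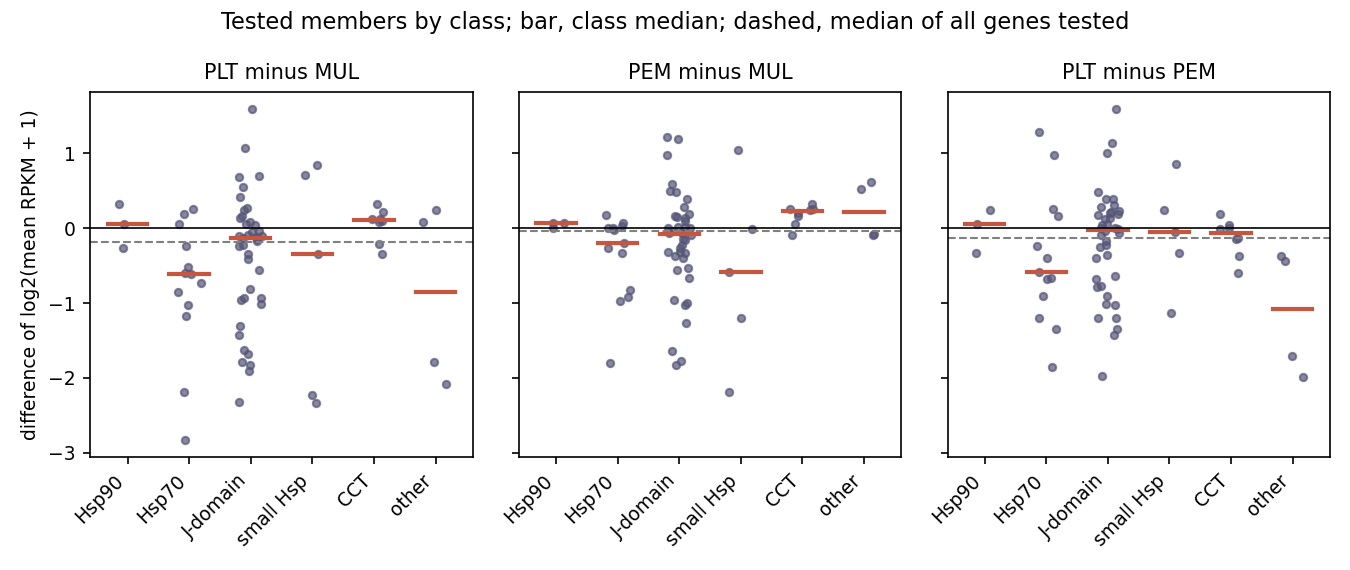
Differences of log2(mean RPKM + 1) for the 73 tested members by class in the 3 comparisons, with bars at class medians and a dashed line at the median of all tested genes. The Hsp70 median lies at -0.61 in PLT minus MUL and -0.58 in PLT minus PEM, no single member passed the adjusted test, and the class medians of CCT and Hsp90 lie between -0.07 and 0.23.

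In PLT minus MUL, the Hsp70 class had a median of -0.61 over 13 genes, 10 of them below 0. The median ranged from -1.26 without MUL mouse 2 (12 genes) to -0.36 without PLT mouse 2. J-domain genes had a median of -0.13 over 40 genes and small heat shock genes of -0.34 over 5. The CCT median of 0.10 and the Hsp90 median of 0.06 turned to -0.14 and -0.05 under quantile normalization between mice. They also changed sign with the mouse left out. The CCT median ranged from -0.23 without PLT mouse 2 to 0.33 without PLT mouse 1. The Hsp90 median ranged from -0.27 without MUL mouse 2 to 0.12 without MUL mouse 1. Both PLT mice lay below both MUL mice for 21 of the 73 members (28.8%, against 24.9% of all genes) and above them for 7 (9.59%, against 14.8%). Dnajb1 was among the lower ones, at 54.3 ± 33.2 RPKM in PLT and 196 ± 163 in MUL (mean ± SD, n = 2 mice each), a log2 difference of -1.67 with a standard error of 0.82 (limma adjusted p = 0.625). That difference was -0.71 without MUL mouse 1 and -2.64 without MUL mouse 2. Hspa8 stood at 2035 ± 398 and 3442 ± 1096 RPKM, a log2 difference of -0.73 ± 0.44 (SE, limma adjusted p = 0.701).

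The member with the smallest p in this comparison was Hspbp1, an exchange factor for Hsp70. It averaged 51.0 and 77.8 RPKM in MUL, 67.8 and 52.4 in PEM, and 16.3 and 18.7 in PLT. Both PLT mice lay below the other 4, with positive shares of 7.53 and 22.6% against 26.9 to 41.9%. The log2 difference was -1.79 ± 0.45 (SE) from MUL (limma unadjusted p = 0.0039, adjusted p = 0.480) and -1.71 ± 0.45 from PEM (unadjusted p = 0.0051, adjusted p = 0.539), and it kept its sign in all 16 alternatives of each. The next members on the lower side were Dnajc6, Dnajc28 and Hspb8, all at 11.2 RPKM or less in every mouse. Dnajc6, auxilin, a J-domain protein of clathrin uncoating, averaged 2.41 and 2.51 RPKM in MUL and at most 0.0146 RPKM in the other 4 mice. Hspb8, a partner of Bag3, averaged 3.42 and 5.35 RPKM in MUL, 4.36 and 0 in PEM, and 0.111 and 0 in PLT.

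On the higher side of PLT minus MUL, Dnajc19, of the mitochondrial import motor, averaged 92.2 and 108 RPKM in MUL, 88.1 and 72.2 in PEM, and 151 and 172 in PLT. The PLT mice were the 2 highest of the 6, and the positive share of 88.1% in PLT mouse 2 stood above the 41.0 to 58.1% of the others. The log2 difference was 0.69 ± 0.35 (SE) from MUL (limma adjusted p = 0.636) and 1.01 ± 0.35 from PEM (adjusted p = 0.561). Dnajc25 was at 2.06 and 1.99 RPKM in PLT and at 0 in the other 4 mice, and it shares an exon with the annotated gene Gm20503. Dnajc25 and Dnajc6 are the only members that passed in any of the 16 alternatives of the means: without the filter on low values the adjusted p was 0.016 and 0.0175 in PLT minus MUL. Both were read in a few cells at about 2 RPKM on average. In the main fit Dnajc25 passed the filter on low values only through the PLT mice, and Dnajc6 only through the MUL mice. The filter thus fixed which mice were highest for these genes. Dnajb7 and Dnajb4 completed the 4 of smallest p, with log2 differences of 1.07 and 0.70 (limma adjusted p = 0.778 and 0.816). The Dnajb4 difference was -0.13 without MUL mouse 2.

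In PEM minus MUL, 33 of the 73 members were above 0, and those of smallest p were Hspd1, Hspe1, Dnajc11 and Dnajc14. The mitochondrial chaperonin Hspd1 stood at 204 ± 0.716 RPKM in PEM and 143 ± 31.2 in MUL, a log2 difference of 0.52 ± 0.35 (SE, limma adjusted p = 0.899). The close PEM means hide a spread within mice. The P1 and P2 cells averaged 152 and 255 RPKM in PEM mouse 1 and 251 and 142 RPKM in PEM mouse 2. Hspe1 had a log2 difference of 0.61 ± 0.51 (SE, limma adjusted p = 0.915). Dnajc11, a J-domain protein of the mitochondrial membrane, averaged 13.1 and 25.4 RPKM in MUL, 34.3 and 56.0 in PEM, and 21.4 and 12.9 in PLT, so both PEM mice were above the other 4. Its log2 difference was 1.22 ± 0.58 (limma adjusted p = 0.867), and the positive shares were 32.3 and 40% in PEM against 6.45 to 14.3% elsewhere. PEM mice lay above both MUL mice for 6 of 73 members (against 17.5% of all genes) and below them for 7 (against 18.3%).

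On the lower side, Dnajc7, which binds both Hsp70 and Hsp90, averaged 98.0 and 140.1 RPKM in MUL, 52.6 and 19.8 in PEM, and 91.6 and 14.9 in PLT. The MUL mice were the 2 highest, and PLT mouse 1 was close to them. The log2 difference of PEM from MUL was -1.82 ± 0.82 (SE, limma adjusted p = 0.867). Dnajb6, known for holding back protein aggregation, averaged 62.7 and 51.4, 36.6 and 21.3, and 51.9 and 75.7 RPKM, with both PEM mice below the other 4. By positive share PEM mouse 1 was the second highest of the 6 (53.8%) and PEM mouse 2 the lowest (28%). Its log2 difference was -0.996 ± 0.47 in PEM minus MUL and 1.14 ± 0.47 in PLT minus PEM (limma adjusted p = 0.867 and 0.585). Dnajc6 and Hspa2, a testis-enriched Hsp70, were the other 2 of smallest p, and Hspa2 was at 19.7 RPKM in MUL mouse 1 and at 0.675 to 4.96 RPKM in the other 5 mice. The Hsp70 class had a median of -0.20. It was 0.22 without PEM mouse 2, -0.71 without MUL mouse 2 (12 genes) and 0.06 when log values were averaged over cells.

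In PLT minus PEM, the Hsp70 median was -0.58 over 13 genes. It was 0.21 over 11 genes without PEM mouse 1 and -1.07 over 13 genes without PEM mouse 2. The sign thus changed without PEM mouse 1, where fewer genes also passed the filter. Both PLT mice lay below both PEM mice for 12 members (against 21.9% of all genes) and above them for 6 (against 14.1%). Besides Hspbp1, the lower members of smallest p were Dnajc28, Hspbap1 and Dnajc11, with log2 differences of -1.97, -1.99 and -1.34. Besides Dnajc19, Dnajc25 and Dnajb6, the higher ones included Hspa12b, an atypical Hsp70 best known from endothelium, at 2.02 and 0.43 RPKM in PLT and 0.0908 and 0.0242 RPKM in PEM. The lowest adjusted p in limma among all members was 0.539 in this comparison. PLT minus MUL and PLT minus PEM share the PLT mice, and PLT minus MUL and PEM minus MUL the MUL mice.

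Positive shares were tested in the same way for the 61 members with at least 5% positive cells in at least 2 mice, out of 9804 such genes. No member was called in any comparison, and the same held for all genes (0%). At an unadjusted p under 0.05, limma gave 1 member lower in PLT minus MUL (against 2.63% of all genes), 1 higher and 0 lower in PEM minus MUL (against 4.12% and 0.316%) and 7 lower in PLT minus PEM (against 10.9%). Both PEM mice lay above both MUL mice for 27 of 61 members (44.3%, against 39.2% of all genes), and both PLT mice below both PEM mice for 21 (34.4%, against 36.3%). Both PLT mice lay below both MUL mice for 15 (24.6%, against 22.1%). The opposite directions held 2 members in PEM minus MUL (against 5.3% of all genes), 0 in PLT minus PEM (against 2.55%) and 3 in PLT minus MUL (against 7.27%). Median detected genes were 3186 and 2752 in PEM, 2209.5 and 2553 in MUL, and 1869 and 2596 in PLT, so that both PEM mice were above the other 4 while PLT mouse 2 was above both MUL mice. Their part in the shares was not tested.

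Hsf1 and the co-chaperones that work with these proteins were read from a list of 45 genes, of which 43 were in the table and 42 were tested. None passed limma's adjusted test in any comparison. At an unadjusted p under 0.05, limma gave 3 lower in PLT minus MUL (against 5.96% of all genes), 1 lower in PEM minus MUL (against 2.79%) and 2 higher in PLT minus PEM (against 2.49%). Hsf1 itself averaged 41.9 and 37.2 RPKM in MUL, 35.9 and 34.8 in PEM, and 5.80 and 24.8 in PLT. The 4 MUL and PEM mice lay close together, with both PLT mice below them. Positive shares were 4.30 and 16.7% in PLT and 22.4 to 33.3% in the MUL and PEM mice. The log2 difference of PLT from MUL was -1.61 ± 0.67 (SE, limma adjusted p = 0.583). Fkbp5, an Hsp90 co-chaperone and known glucocorticoid target, and Sil1, an exchange factor for BiP, were the other 2 lower genes, at log2 differences of -1.65 and -1.41. For 10 of the 42 co-chaperones both PLT mice lay below both MUL mice, against 24.9% of all genes. Ptges3, the Hsp90 co-chaperone p23, averaged 520.1 and 287 RPKM in MUL, 325 and 361 in PEM, and 579.9 and 611 in PLT. Its log2 difference of PLT from PEM was 0.79 ± 0.34 (limma adjusted p = 0.595). Canx, calnexin, the lectin chaperone of the endoplasmic reticulum, averaged 645 and 492, 303 and 256, and 853 and 364 RPKM, with both PEM mice below the other 4.

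MUL mouse 1 and PEM mouse 1 were the 2 highest mice for 7 of the 42 tested co-chaperones (16.7%, against 6.53% of all genes), a count made after the values were seen: Bag3, Stip1, St13, Ahsa1, Chordc1, Pfdn5 and Trap1. The other 35 had other orders, such as Hsbp1, a binder of heat shock factor, which was highest in the PLT mice (297 and 361 RPKM). Stip1, which links Hsp70 to Hsp90, averaged 272 and 63.7 RPKM in MUL, 174 and 96.2 in PEM, and 125 and 109 in PLT. Chordc1, an Hsp90 co-chaperone, averaged 239 and 55.2, 157 and 55.2, and 71.1 and 151 RPKM. Ahsa1, which stimulates the Hsp90 ATPase, averaged 339 and 182, 347 and 128, and 158 and 189.5 RPKM. PLT mouse 2 was close to PEM mouse 1 for Chordc1. Bag3, an exchange factor and partner of Hspb8, averaged 11.7 and 2.98, 8.4 and 0, and 1.04 and 0.502 RPKM.

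Reads of several members could also come from near-identical copies. Besides the Hspa1a pair, 48.8% of the 50-base stretches of Hspb1, 47.5% of those of Hsp90aa1, 39.7% of those of Hspd1 and 38.6% of those of Hspa8 occurred in another annotated gene, mostly a pseudogene. The values of these genes are therefore uncertain in level. Hsph1 and Dnajb1 are not among the members with such stretches over 5% of their length.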

How the data were processed

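The RPKM table of 22645 gene symbols by 458 cells was deposited by the authors. TopHat, featureCounts and mm10 were used, per the submitters' processing notes. Versions, gene lengths, read totals and strand use are not given in the sources used here. A second deposited table gives each cell's count of mapped reads, count of detected genes and percent of mitochondrial reads, per the file headers, with mouse, sex and status. No cell was removed, and doublets were not called, since each cell was sorted into its own well.

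RPKM was averaged over the cells of a mouse, since cells are not replicates. Replicates were numbered by accession. Genes with at least 1 RPKM in at least 2 of 6 mice (11337, with 73 members) were tested on log2(mean + 1) with limma 3.58.1 in R 4.3.3, using a trended variance over all 6 mice (3 residual degrees of freedom, 8.33 after moderation). Shares of cells at 1 RPKM or more were tested after an arcsine square-root transform, where at least 5% in at least 2 mice. P-values were adjusted by Benjamini-Hochberg over all tested genes, with a threshold of 0.05. The fit of means was run on simulated mouse values, with a spread capped at the median over genes. The simulated differences were larger than those of any member in the main fit. The simulation therefore does not measure the power of the reported fits. Intervals of shares are Clopper-Pearson at 95%, and a share of 0 allows 3 counts of the total. An RPKM value carries no stated number of reads, so no count model was fitted.

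The members and lists were chosen with earlier results of these data known, so no p was computed over the set. Named genes were members with a mean of at least 50 RPKM, a fixed list of well-known members, and the 4 of smallest p in each comparison and direction (3 for co-chaperones). Positions and shared 50-base stretches came from GENCODE M21 on GRCm38 (the assembly also called mm10), matched by symbol for all 82 genes. Python 3.11.15, pandas 2.3.3 and SciPy 1.17.1 were used. Alternatives changed the pseudocount, filter, scaling, cells kept, cell threshold and mice left out.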

Additional observations from a re-analysis of the deposited data

How the results depend on the processing

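No member was called in the reported fits. Signs of single differences were not stable: of 135 differences of named members (45 genes in 3 comparisons), 89 had the other sign in at least 1 alternative. Without a filter on low values, 2 members passed in PLT minus MUL, 1 in PEM minus MUL and 1 in PLT minus PEM, while 19, 9 and 4 of all genes passed. These were Dnajc25, at 1.60 in both PLT comparisons (limma adjusted p = 0.016 and 0.0306), and Dnajc6, at -1.79 in PLT minus MUL (0.0175) and -1.78 in PEM minus MUL (0.0251). That setting tests 78 members in place of 73, and 15756 genes in place of 11337, many of them near 0. With the filter, Dnajc25 was tested only because of the PLT mice and Dnajc6 only because of the MUL mice. The Dnajb4 difference in PLT minus MUL ranged over the mice left out from -0.13 (without MUL mouse 2) to 1.53 (without MUL mouse 1), and the cause was not tested. Leaving out each mouse gave 0 called members in each comparison. No paired analysis was possible because the numbers of the mice only follow the accessions. With 2 mice per group and 25 cells in PEM mouse 2, small differences could not be resolved, and genes positive in few cells rest on few molecules.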
